A study of Mus musculus with 6 samples.

Results

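The genes described here encode the steps that take glucose into the cell, break it down to pyruvate, and send pyruvate either to lactate or into the mitochondrion. They were 34 genes of glucose transport, glycolysis, lactate handling and the pyruvate dehydrogenase switch, out of 22911 genes that could be named on the array. Each was found through the transcript accession of its non-control probes, matched to RefSeq symbols, and was represented by its brightest probe over all arrays. The 34 genes had 61 probes, and 18 of them had more than 1. Of the 34, 33 were well above background on all 6 arrays and were tested. The exception was Pfkfb1, whose probe was not well above background on any array.

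Expression was measured in lungs of male mice on 6 one-colour Agilent arrays, in 3 groups of 2 samples. Myofibroblasts were cells of bleomycin-treated lung sorted as CD49e+Sca1-Lin-. Steady-state fibroblasts were cells of untreated lung sorted by another gate, CD140a+Lin-. Lung homogenates came from untreated lung and hold all its cell types. Bleomycin is a drug that injures the lung and is followed by fibrosis. Each sample was labelled from 5.8 ng of total RNA, and the design text gives 50000 cells for each set. Gate and bleomycin changed together between the sorted groups and cannot be told apart. The labels give no age or strain, do not say what Lin covers, and do not say that samples of a group came from separate mice, so a p-value here refers to the spread of these arrays alone, part or all of which may be technical.

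Glycolysis turns glucose into pyruvate in a chain of enzymes. Hexokinase traps glucose in the cell, phosphofructokinase commits it to the chain, and the steps from glyceraldehyde-3-phosphate to pyruvate return ATP and NADH. Lactate dehydrogenase reduces pyruvate to lactate, which monocarboxylate transporters carry across the membrane, while pyruvate dehydrogenase feeds pyruvate to the mitochondrion unless its kinases switch it off. Many genes of this chain are known targets of the hypoxia-inducible factors, and activated fibroblasts are known for high glycolytic flux. These factors bind sites with the core ACGTG or GCGTG, of which only ACGTG was searched here.

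The letters around the starts are shown for 5 of the genes, chosen after their values were seen. Any link between these letters and the values was not tested. Hk2, Pgk1 and Slc16a1 were higher in myofibroblasts than in fibroblasts, Ldhb was lower, and Ldha was not called. Sequences are RefSeq windows of 300 bases on GRCm38.p6, read 5′ to 3′ in the direction of the gene, with ACGTG or its reverse complement CACGT in capitals (CACGTG holds both).
Hk2, chr6:82774405-82774704, minus strand: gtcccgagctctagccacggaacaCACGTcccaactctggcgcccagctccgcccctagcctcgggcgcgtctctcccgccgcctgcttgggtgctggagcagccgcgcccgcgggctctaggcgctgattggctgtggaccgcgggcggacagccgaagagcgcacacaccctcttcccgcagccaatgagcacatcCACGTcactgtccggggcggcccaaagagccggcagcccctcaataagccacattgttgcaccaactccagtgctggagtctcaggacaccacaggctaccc
Pgk1, chrX:106186850-106187149, plus strand: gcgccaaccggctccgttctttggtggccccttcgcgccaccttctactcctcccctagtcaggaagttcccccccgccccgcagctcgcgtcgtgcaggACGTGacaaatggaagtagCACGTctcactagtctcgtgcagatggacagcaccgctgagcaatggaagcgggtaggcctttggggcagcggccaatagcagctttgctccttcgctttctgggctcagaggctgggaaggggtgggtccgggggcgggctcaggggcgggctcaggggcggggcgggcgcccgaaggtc
Slc16a1, chr3:104638414-104638713, plus strand: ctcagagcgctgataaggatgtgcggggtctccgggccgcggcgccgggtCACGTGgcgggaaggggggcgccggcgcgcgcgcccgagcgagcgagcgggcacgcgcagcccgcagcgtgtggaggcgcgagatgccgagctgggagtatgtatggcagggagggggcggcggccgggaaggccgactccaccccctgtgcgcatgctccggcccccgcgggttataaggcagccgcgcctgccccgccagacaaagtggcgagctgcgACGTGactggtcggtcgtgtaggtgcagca
Ldha, chr7:46845554-46845853, plus strand: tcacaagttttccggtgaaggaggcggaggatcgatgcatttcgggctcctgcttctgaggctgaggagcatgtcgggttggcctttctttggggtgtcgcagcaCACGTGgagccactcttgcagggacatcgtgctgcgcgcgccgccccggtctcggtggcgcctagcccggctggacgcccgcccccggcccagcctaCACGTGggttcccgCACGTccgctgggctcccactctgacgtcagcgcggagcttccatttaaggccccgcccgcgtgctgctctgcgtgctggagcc
Ldhb, chr6:142507908-142508207, minus strand: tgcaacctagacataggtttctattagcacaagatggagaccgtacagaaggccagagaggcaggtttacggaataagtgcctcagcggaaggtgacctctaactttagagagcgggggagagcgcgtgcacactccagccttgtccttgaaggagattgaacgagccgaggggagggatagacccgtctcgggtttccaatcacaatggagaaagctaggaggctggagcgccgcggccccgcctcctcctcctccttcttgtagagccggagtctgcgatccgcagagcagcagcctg
The Hk2 and Pgk1 windows held 2 matches each, the Slc16a1 window 3, the Ldha window shown 5, and the Ldhb window 0. Each CACGTG counts as 2 of these matches, with 1 such stretch in the Slc16a1 window and 2 in that of Ldha. A further Ldha window, not shown, held 0 matches. RefSeq windows were given for 32 of the 34 genes, without Slc2a3 and Slc2a4, and 23 of their 51 windows (45.1%) held ACGTG on either strand, against 19.6% of all 32851 windows in the table. The longer CACGTG, which overlaps it, was in 11.8% of the windows of these genes, against 7.15% of all. Counted by gene, 59.4% of the 32 genes had ACGTG in at least 1 window, against 21.8% of all genes with windows. Such a window was found for 7 of the 9 genes that were higher in myofibroblasts than in fibroblasts, all but Tpi1 and Eno1. It was found for 1 of the 2 that were lower, Pfkfb3, and for 11 of the 20 that had a window and were tested but not called. GCGTG was not counted, so a window with 0 matches can still hold it, as the Ldhb window does. The match describes letters and is not a measured binding site.

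All levels below are relative signals, the processed signal of a probe divided by the 75th percentile of its array. A level can be compared between arrays for 1 gene, and not between genes. The gated genes followed the labels: Itga5, which encodes CD49e, was at 3.74 and 5.01 in myofibroblasts, against 0.316 and 0.228 in fibroblasts, and Pdgfra, which encodes CD140a, was at 9.66 and 10.2 in myofibroblasts, against 73.5 and 35.1 in fibroblasts. On each array 65.5% to 73.4% of spots were well above background and 0 were saturated. The 2 fibroblast arrays stood further apart than the other pairs: 23.8% of genes above background differed more than 2-fold between them, against 7.88% between the myofibroblast arrays and 2.90% between the homogenate arrays. Among the 33 genes tested here the numbers were 8, 1 and 0. The 8 were Slc2a1, Hk1, Pfkl, Pfkfb2, Pfkfb3, Eno3, Ldha and Pdk4. All 6 arrays shared 1 slide and 1 scan date, per the file headers, but the sorted samples filled 1 row of that slide and the homogenates part of the next. Within that row myofibroblasts filled columns 1 and 2 and fibroblasts columns 3 and 4. Position on the slide and group can therefore not be separated in any of the 3 comparisons.

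**Figure D1:**
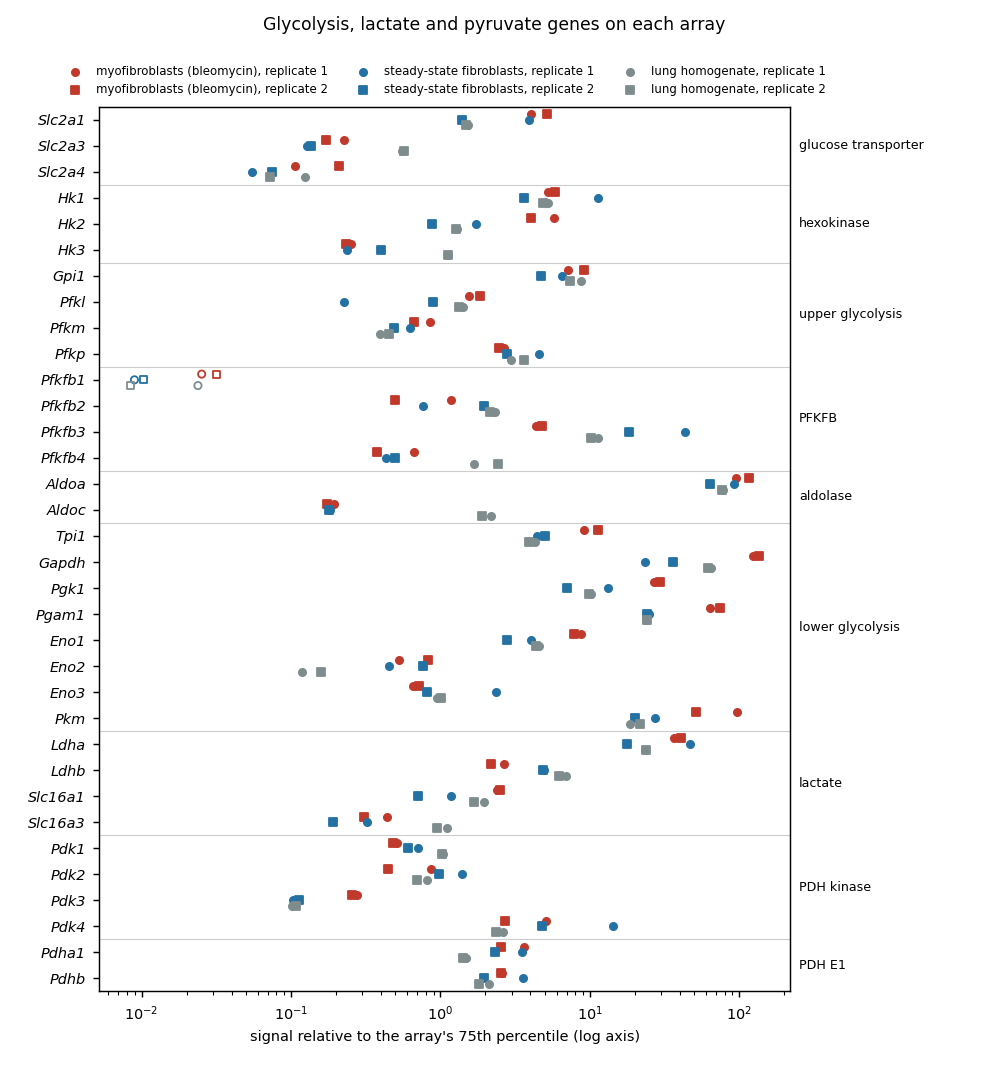
Relative signal of each of the 34 genes on each of the 6 arrays (log axis), grouped by the role of the gene. Circles are replicate 1 and squares replicate 2. Red is myofibroblasts, blue steady-state fibroblasts and grey lung homogenate, and open symbols are not well above background. Gapdh, Pgk1, Pgam1, Eno1, Tpi1, Pkm and Hk2 have both red symbols to the right of every other symbol, while Aldoc has both sorted groups far to the left of homogenate.

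Between myofibroblasts and steady-state fibroblasts, 11 of the 33 tested genes passed the test, of which 9 had more signal in myofibroblasts and 2 less. The 9 included the hexokinase Hk2, the triose isomerase Tpi1 and the lower glycolytic enzymes Gapdh, Pgk1, Pgam1, Eno1 and Pkm. The lactate transporter Slc16a1 and the pyruvate dehydrogenase kinase Pdk3 completed the 9, and the fold changes were 2.17 to 4.48. The 2 were Pfkfb3, which was 6.13-fold lower, and Ldhb, which was 2.03-fold lower. In the same test 17.5% of all 15971 genes were called, 9.35% higher and 8.14% lower, against 33.3%, 27.3% and 6.06% of the 33. The median log2 difference was 0.44 over the 33 and -0.06 over all genes tested. Both myofibroblast arrays lay above both fibroblast arrays for 16 of the 33 genes and below them for 6, which compares with 30.3% and 32.8% of all genes tested. Of all genes called, 53.5% were higher in myofibroblasts, against 64.4% when arrays were scaled by their median and 25.6% in the authors' deposited table, where 4 of the 33 were called higher and 2 lower. Without either myofibroblast array none of the 11 passed (limma, adjusted p = 0.050 to 0.187), and without either homogenate array, which only adds to the estimate of spread, Gapdh alone passed. Slc2a1 and Ldha were gained without fibroblast replicate 1, and Hk1 (-1.03), Pfkl (2.90), Eno3 (-1.78) and Pdk4 (-1.93) without fibroblast replicate 2.

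**Figure D2:**
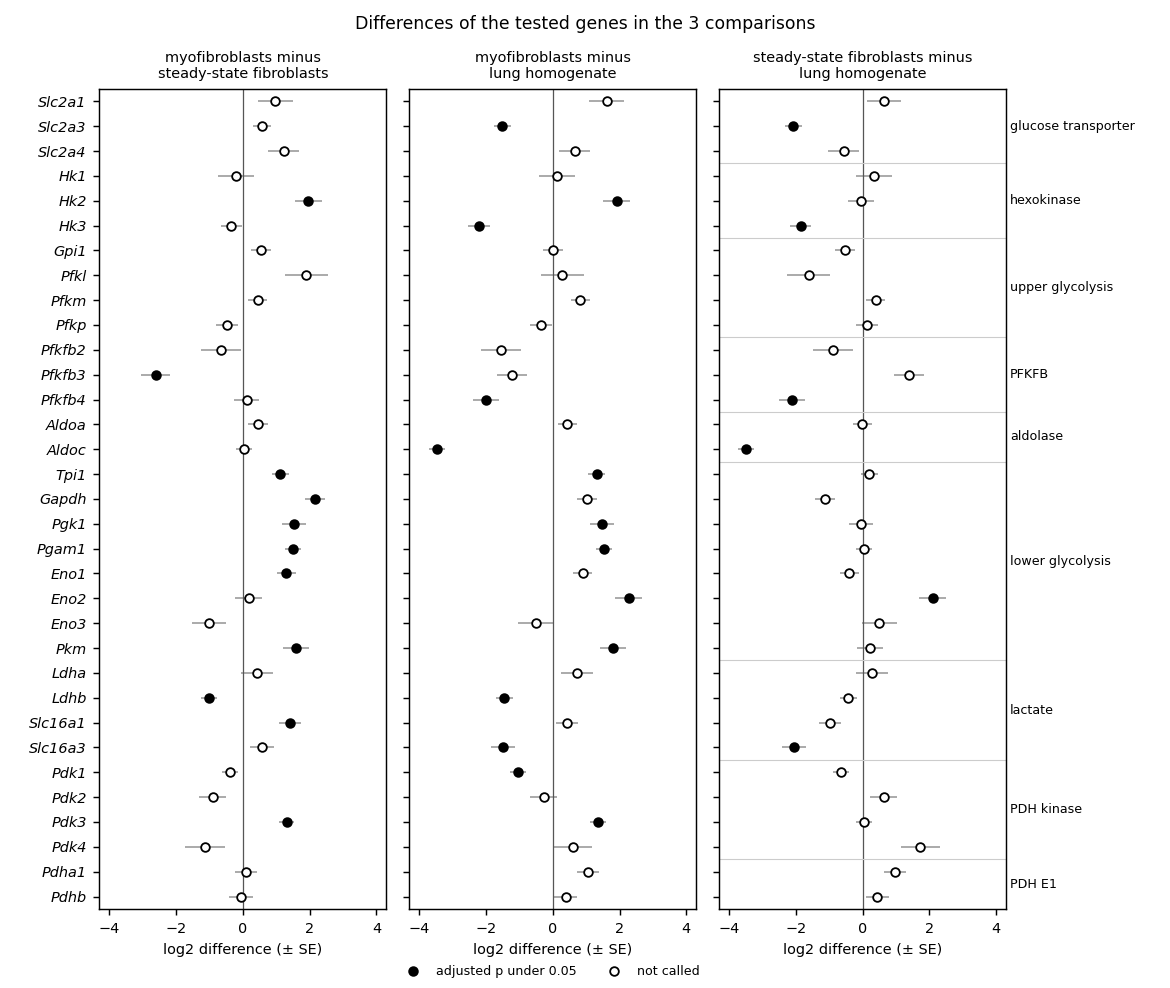
Log2 difference with its standard error for the 33 tested genes in the 3 comparisons, myofibroblasts minus fibroblasts, myofibroblasts minus homogenate and fibroblasts minus homogenate. Filled points have an adjusted p under 0.05. In the left panel the filled points to the right of 0 are mostly enzymes grouped as lower glycolysis, Tpi1 included, and Pfkfb3 lies furthest to the left at -2.62.

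By their brightest probes, the genes of glucose entry did not pass the test between the sorted groups. Slc2a1, the widely used glucose transporter GLUT1, was at 4.05 and 5.21 in myofibroblasts, against 3.94 and 1.39 in fibroblasts and 1.52 and 1.48 in homogenate. The myofibroblast arrays were above the others, but the 2 fibroblast arrays differed 2.83-fold. Its log2 difference was 0.97 ± 0.52 (SE, limma, adjusted p = 0.231) against fibroblasts, and the call turned on the fibroblast arrays, at 1.72 without replicate 1 (adjusted p = 0.0280) and 0.22 without replicate 2 (adjusted p = 0.522). Slc2a3, which encodes the high-affinity transporter GLUT3, was at 0.226 and 0.172 in myofibroblasts, 0.129 and 0.137 in fibroblasts, and 0.553 and 0.571 in homogenate. Both sorted groups were below homogenate. The other Slc2a3 probe was at 0.116 and 0.380 in myofibroblasts, against 0.00847 and 0.0382 in fibroblasts. Its log2 difference of 3.55 between them was not called (limma, adjusted p over all probes = 0.0602). With the mean over all probes of a gene, Slc2a3 was called between the sorted groups. Slc2a4, the insulin-regulated transporter GLUT4, was low throughout, between 0.0546 and 0.209.

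The 3 hexokinases did not move together. Hk2, the inducible hexokinase, was at 5.74 and 4.06 in myofibroblasts, against 1.73 and 0.882 in fibroblasts and 1.30 and 1.27 in homogenate. Both myofibroblast arrays were above the other 4. Its log2 difference from fibroblasts was 1.96 ± 0.40 (SE, adjusted p = 0.0293) and from homogenate 1.91 ± 0.40 (adjusted p = 0.0215). Hk1, the hexokinase found in most cells, was at 5.25 and 5.87 in myofibroblasts, 11.3 and 3.65 in fibroblasts, and 5.29 and 4.89 in homogenate, with overlapping groups. Hk3, known from leukocytes, was at 0.250 and 0.235 in myofibroblasts, 0.238 and 0.400 in fibroblasts, and 1.13 and 1.12 in homogenate. It was lower than in homogenate in both sorted groups.

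The upper steps, from glucose-6-phosphate to the trioses, held no call between the sorted groups. Tpi1, which interconverts the trioses and was called, is grouped with the later enzymes below. Gpi1, the isomerase that follows hexokinase, was at 7.13 and 9.19 in myofibroblasts, 6.49 and 4.75 in fibroblasts, and 8.73 and 7.32 in homogenate. Pfkl, Pfkm and Pfkp encode the liver, muscle and platelet forms of phosphofructokinase. Pfkl was at 1.55 and 1.84 in myofibroblasts, 0.227 and 0.896 in fibroblasts, and 1.43 and 1.34 in homogenate. Its log2 difference of 1.90 ± 0.64 from fibroblasts was close to that of Hk2 but came with a wider error (adjusted p = 0.0960). Pfkm ranged from 0.395 to 0.850 and Pfkp from 2.47 to 4.57 over the 6 arrays, and neither was called in any comparison. Aldoa, the main aldolase of most tissues, was at 94.6 and 116 in myofibroblasts, 93.1 and 63.4 in fibroblasts, and 78.4 and 76.3 in homogenate, with a log2 difference of 0.45 ± 0.30 from fibroblasts (adjusted p = 0.322).

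The PFKFB enzymes make and remove fructose-2,6-bisphosphate, the activator of phosphofructokinase, and the largest negative difference of the 33 genes between myofibroblasts and fibroblasts was in this family. Pfkfb3, the isoform known for high kinase activity, was at 4.40 and 4.83 in myofibroblasts, against 43.4 and 18.4 in fibroblasts and 11.4 and 10.2 in homogenate. The myofibroblast arrays were the lowest and the fibroblast arrays the highest, although the 2 fibroblast arrays differed 2.37-fold. The log2 difference from fibroblasts was -2.62 ± 0.44 (SE, adjusted p = 0.0183), and that from homogenate, -1.22 ± 0.44, did not pass (adjusted p = 0.0946). A second Pfkfb3 probe was also called lower, at 0.782 and 0.558 in myofibroblasts against 1.58 and 1.91 in fibroblasts. Pfkfb4, an isoform of testis and of hypoxic cells, was at 0.671 and 0.378 in myofibroblasts, 0.435 and 0.496 in fibroblasts, and 1.68 and 2.44 in homogenate. Pfkfb2, the heart isoform, was at 1.18 and 0.499 in myofibroblasts, 0.760 and 1.95 in fibroblasts, and 2.33 and 2.15 in homogenate, and was not called.

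Of the 8 enzymes grouped here as lower glycolysis 6 were higher in myofibroblasts than in fibroblasts, and 0 were lower. Tpi1 is among the 6, although it acts on the trioses and could as well be placed with the upper steps. Gapdh, which oxidises glyceraldehyde-3-phosphate, was at 124 and 136 in myofibroblasts, against 23.3 and 35.9 in fibroblasts and 64.4 and 62.1 in homogenate. The groups did not overlap, and fibroblasts were the lowest. Gapdh was 4.48-fold higher in myofibroblasts than in fibroblasts, a log2 difference of 2.16 ± 0.30 (SE, adjusted p = 0.0105), and the difference from homogenate missed the threshold (1.04 ± 0.30, adjusted p = 0.0534). Gapdh is often used as a constant reference gene.

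Pgk1, which makes ATP from 1,3-bisphosphoglycerate, was at 26.9 and 29.5 in myofibroblasts, against 13.3 and 7.06 in fibroblasts and 10.3 and 9.92 in homogenate. Pgam1, the phosphoglycerate mutase, was at 64.1 and 74.3 in myofibroblasts, against 24.8 and 24.2 in fibroblasts and 23.9 and 24.0 in homogenate. Tpi1, which interconverts the trioses, was at 9.21 and 11.3 in myofibroblasts, against 4.44 and 5.01 in fibroblasts and 4.31 and 3.92 in homogenate. For these 3 genes fibroblasts and homogenate lay close together and both myofibroblast arrays lay above them. Against fibroblasts the log2 differences were 1.54 ± 0.36 for Pgk1 (adjusted p = 0.0410), 1.49 ± 0.24 for Pgam1 (adjusted p = 0.0155) and 1.12 ± 0.25 for Tpi1 (adjusted p = 0.0390). All 3 were also called higher than in homogenate, Pgam1 with the smallest adjusted p of the 3, 0.00825.

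Pkm, the pyruvate kinase of most tissues other than liver, was at 96.3 and 51.5 in myofibroblasts, against 27.2 and 20.0 in fibroblasts and 18.7 and 21.7 in homogenate. The myofibroblast arrays differed 1.87-fold from each other and were both above the rest. Its log2 difference was 1.60 ± 0.38 from fibroblasts (adjusted p = 0.0445) and 1.81 ± 0.38 from homogenate (adjusted p = 0.0226). The call against fibroblasts was lost in each of the 6 fits that left out 1 array. Eno1, the widespread enolase, was at 8.81 and 7.84 in myofibroblasts, against 4.06 and 2.81 in fibroblasts and 4.55 and 4.37 in homogenate, and passed against fibroblasts (1.30 ± 0.28, adjusted p = 0.0346) but not against homogenate (0.90 ± 0.28, adjusted p = 0.0676). Eno2, the neuronal enolase, showed another pattern, with 0.528 and 0.824 in myofibroblasts, 0.450 and 0.763 in fibroblasts, and 0.118 and 0.158 in homogenate. Both sorted groups were above homogenate and overlapped each other. Eno3, the muscle enolase, was at 0.656 and 0.717 in myofibroblasts, 2.35 and 0.813 in fibroblasts, and 0.950 and 1.01 in homogenate, and was not called.

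Among the lactate genes the 2 dehydrogenase subunits differed in their calls. Ldha, the subunit known to favour lactate formation, was at 36.4 and 41.1 in myofibroblasts, against 46.7 and 17.7 in fibroblasts and 23.6 and 23.6 in homogenate. The myofibroblast values fell between the 2 fibroblast arrays, which differed 2.63-fold, and the log2 difference was 0.43 ± 0.48 (SE, adjusted p = 0.556). Without fibroblast replicate 1 Ldha was called higher in myofibroblasts (1.13, adjusted p = 0.0406), and without replicate 2 its sign turned, with no call (-0.27, adjusted p = 0.350). Ldhb, the subunit known to favour lactate use, was at 2.65 and 2.18 in myofibroblasts, against 4.92 and 4.84 in fibroblasts and 6.96 and 6.22 in homogenate. The groups did not overlap, and the log2 difference was -1.02 ± 0.25 from fibroblasts (adjusted p = 0.0458) and -1.45 ± 0.25 from homogenate (adjusted p = 0.0112).

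Within each array, log2 Ldha minus log2 Ldhb was 3.78 and 4.23 in myofibroblasts, 3.25 and 1.87 in fibroblasts, and 1.76 and 1.92 in homogenate. This difference of the brightest probes does not depend on the scaling between arrays, and both myofibroblast arrays were above the other 4. No test was made of it, since the pair was chosen with earlier results known. The other Ldha probe read 0.515 and 0.692 in myofibroblasts and 0.435 and 0.929 in fibroblasts. The other Ldhb probe read 0.113 and 0.0841 in myofibroblasts and 0.0520 and 0.240 in fibroblasts. By these probes the sorted groups overlapped in the same difference. Slc16a1, the lactate transporter MCT1, was at 2.38 and 2.49 in myofibroblasts, against 1.18 and 0.714 in fibroblasts and 1.96 and 1.68 in homogenate. Fibroblasts were the lowest group, and the log2 difference of myofibroblasts from them was 1.41 ± 0.32 (adjusted p = 0.0399). Slc16a3, the transporter MCT4 known from glycolytic cells, was at 0.440 and 0.310 in myofibroblasts, 0.322 and 0.192 in fibroblasts, and 1.12 and 0.951 in homogenate. The sorted groups overlapped, and log2 Slc16a3 minus log2 Slc16a1 was -2.44 and -3.01 in myofibroblasts, -1.88 and -1.89 in fibroblasts, and -0.81 and -0.82 in homogenate.

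At the entry to the mitochondrion, 1 of the 4 kinases that switch pyruvate dehydrogenase off was called between the sorted groups. Pdk3 was at 0.278 and 0.258 in myofibroblasts, against 0.103 and 0.114 in fibroblasts and 0.101 and 0.108 in homogenate. Both myofibroblast arrays were above the other 4, with log2 differences of 1.31 ± 0.24 from fibroblasts (adjusted p = 0.0217) and 1.36 ± 0.24 from homogenate (adjusted p = 0.0119). Pdk1, a known hypoxia target, was at 0.516 and 0.479 in myofibroblasts, 0.707 and 0.608 in fibroblasts, and 1.04 and 1.02 in homogenate. Pdk2 was at 0.873 and 0.449 in myofibroblasts, 1.40 and 0.979 in fibroblasts, and 0.814 and 0.696 in homogenate. Pdk4, known to rise in fasting, was at 5.13 and 2.73 in myofibroblasts, 14.2 and 4.77 in fibroblasts, and 2.61 and 2.36 in homogenate. Its spread within both sorted groups left a log2 difference of -1.14 ± 0.59 without a call (adjusted p = 0.223). Pdha1 and Pdhb, the 2 subunits of the enzyme's E1 part, were not called in any comparison. Pdha1 was at 3.64 and 2.54 in myofibroblasts, 3.51 and 2.31 in fibroblasts, and 1.48 and 1.43 in homogenate. Pdhb was at 2.57 and 2.55 in myofibroblasts, 3.58 and 1.97 in fibroblasts, and 2.11 and 1.82 in homogenate.

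The 27 other probes of these genes gave a second reading of some values. Between the sorted groups 22 of them were tested, with p adjusted over all probes 18 had the same call as the brightest probe of their gene, 4 had another and 0 were called in the opposite direction. For Gapdh 5 of 6 probes were called higher in myofibroblasts, with log2 differences of 1.03 to 2.74 over the 6, and the sixth stood at an adjusted p of 0.0553. Both probes of Pgam1 and of Eno1 were called higher. The other 3 of these 4 were 2 probes of Tpi1, at 2.02 and 1.78 on the log2 scale, and 1 of Pkm at 4.34. The Pkm probe read 6.66 and 9.33 in myofibroblasts, against 0.0701 and 2.15 in fibroblasts, far apart on the 2 fibroblast arrays. Of the 20 other probes above background on all arrays, 16 read lower on fibroblast replicate 1 than on replicate 2, against 10 of the 33 brightest probes. Over all probes Ldhb's brightest probe had an adjusted p of 0.0545, just past the threshold, and its second probe was at -0.20 (adjusted p = 0.863), so that gene counts among the 18 without either probe being called there.

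**Figure D3:**
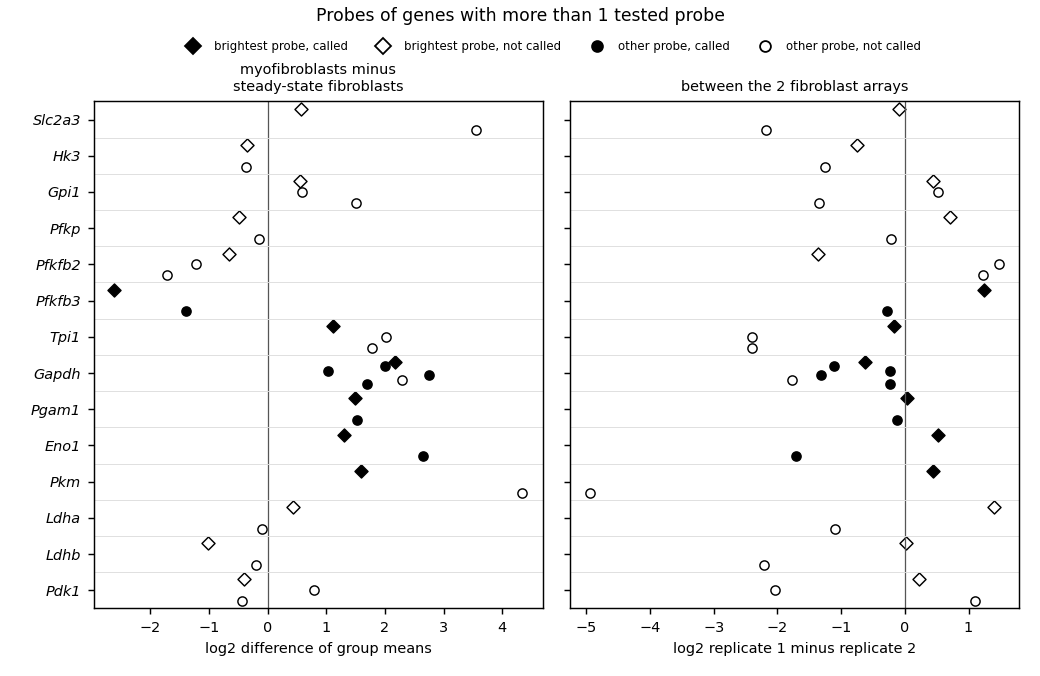
Every tested probe of the genes with more than 1 tested probe. The left panel gives the log2 difference of myofibroblasts minus fibroblasts and the right panel the log2 difference between fibroblast replicate 1 and replicate 2. Diamonds are the brightest probe of a gene, circles its other probes, and filled symbols are called between the sorted groups with p adjusted over all probes. Most circles in the right panel lie to the left of 0, the Pkm circle furthest.

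Against lung homogenate, 14 of the 33 genes differed in myofibroblasts, 7 higher and 7 lower. Hk2, Tpi1, Pgk1, Pgam1, Eno2, Pkm and Pdk3 were higher, by 2.48-fold to 4.82-fold. Slc2a3, Hk3, Pfkfb4, Aldoc, Ldhb, Slc16a3 and Pdk1 were lower, by 2.08-fold to 11.0-fold. Over all 17159 genes tested 27.1% were called, 11.9% higher and 15.1% lower, against 42.4%, 21.2% and 21.2% of the 33. The median log2 difference was 0.43 over the 33 and -0.02 over all. Of all genes called, 44.1% were higher in myofibroblasts, against 64.5% when arrays were scaled by their median and 20.7% in the authors' deposited table. In homogenate, fewer cells of a type and less RNA per cell cannot be told apart. Bleomycin, sorting and the mix of cell types also changed together between myofibroblasts and homogenate and cannot be told apart. The call of Aldoc held in all 6 fits without 1 array and in 13 other settings, while without homogenate replicate 1 or 2 the other 13 calls were lost.

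Aldoc, the aldolase of brain, was at 0.195 and 0.173 in myofibroblasts, 0.182 and 0.179 in fibroblasts, and 2.19 and 1.89 in homogenate. The log2 difference between the sorted groups was 0.03 ± 0.24 (adjusted p = 0.943), and both were below homogenate, with log2 differences of -3.47 ± 0.24 in myofibroblasts (adjusted p = 0.000587) and -3.49 ± 0.24 in fibroblasts (adjusted p = 0.000632). Hk3 had log2 differences of -2.21 ± 0.32 in myofibroblasts (adjusted p = 0.00645) and -1.86 ± 0.32 in fibroblasts (adjusted p = 0.0130), and a second Hk3 probe was not called in either comparison. Slc2a3 had a log2 difference of -1.51 ± 0.26 in myofibroblasts (adjusted p = 0.0112), and its second probe was not called. The log2 difference of Pfkfb4 was -2.01 ± 0.38 (adjusted p = 0.0155), and that of Slc16a3 was -1.48 ± 0.36 (adjusted p = 0.0334). Eno2 was higher by 2.27 ± 0.40 (adjusted p = 0.0120). Pdk1 had a log2 difference of -1.05 ± 0.24 (adjusted p = 0.0275), and none of its 3 other probes was called. The single other probe of Pkm and of Ldhb and both other Tpi1 probes were not called in this comparison either.

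In steady-state fibroblasts, 6 of the 33 genes differed from homogenate, 1 higher and 5 lower. Eno2 was higher (2.10 ± 0.40 on the log2 scale, adjusted p = 0.0177). Slc2a3, Hk3, Pfkfb4, Aldoc and Slc16a3 were lower, with log2 differences of -2.08, -1.86, -2.12, -3.49 and -2.05. Over all 17054 genes tested 20.0% were called, 8.11% higher and 11.9% lower, against 18.2%, 3.03% and 15.2% of the 33. The shares of the 33 are close to or below those of all genes. The 3 comparisons share arrays, so their counts are not independent. Side by side, 6 genes were higher in myofibroblasts than in either fibroblasts or homogenate (Hk2, Tpi1, Pgk1, Pgam1, Pkm and Pdk3). Ldhb was lower than in either, and 15 tested genes were called in no comparison. The matching shares over all genes were not counted, so whether these joint counts are unusual cannot be read from them.

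Markers of other cells moved with these comparisons, and their part in the values above was not tested. Leaving out Itgam and Csf1r, a choice made after seeing that their probes read almost the same on all 6 arrays, the 6 other macrophage and leukocyte markers summed to 1.37 and 2.73 in myofibroblasts, 1.14 and 0.832 in fibroblasts, and 123 and 127 in homogenate, and all 6 were lower in myofibroblasts than in homogenate. The 6 endothelial markers summed to 0.247 and 0.175 in myofibroblasts, 0.346 and 0.366 in fibroblasts, and 69.1 and 68.5 in homogenate. The 7 epithelial markers summed to 11.6 and 17.5 in myofibroblasts, 121 and 71.9 in fibroblasts, and 839 and 828 in homogenate. Most of this was Scgb1a1 alone, at 10.4 and 15.9, 118 and 69.0, and 614 and 602. Such sums lean on their brightest probes and do not describe every marker. Between the sorted groups the epithelial genes Scgb1a1 and Sftpc were lower in myofibroblasts, and the macrophage gene Marco was higher, at 0.458 and 1.84 against 0.111 and 0.107. Itgax, S100a8, S100a9, Cdh1, Foxj1, Kdr and Tie1 were not well above background in either sorted group. Csf3r, listed as a neutrophil marker with S100a8 and S100a9, was well above background on all 6 arrays and called in no comparison. It was at 154 and 141 in myofibroblasts, 169 and 227 in fibroblasts, and 184 and 188 in homogenate. Of the 4 tested pericyte and smooth muscle markers, 3 were higher in myofibroblasts (Cspg4, Myh11 and Cnn1) and 1 was lower (Kcnj8). The 5 listed markers summed to 10.6 and 11.3 in myofibroblasts and 10.2 and 6.90 in fibroblasts. Kcnj8 alone was at 1.14 and 1.52 in myofibroblasts and 9.03 and 5.74 in fibroblasts. All 4 proliferation markers, Mki67, Top2a, Ccnb1 and Bub1, were higher in myofibroblasts than in fibroblasts and than in homogenate, with sums of 11.2 and 10.3 in myofibroblasts, 0.294 and 0.218 in fibroblasts, and 2.08 and 2.02 in homogenate.

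Other genes of glucose metabolism were counted from further lists, which were drawn up with earlier results of these data known. In this comparison 17.5% of all genes were called, 9.35% higher and 8.14% lower, and the counts of the lists are to be read against these shares. Of 19 tested genes of further glycolysis and glucose handling, 3 were higher in myofibroblasts than in fibroblasts and 0 lower, 15.8% called. Bpgm, which makes 2,3-bisphosphoglycerate, was at 93.8 and 92.8 in myofibroblasts, against 4.18 and 5.72 in fibroblasts and 8.89 and 6.80 in homogenate. That was a log2 difference of 4.25 ± 0.29 (SE, adjusted p = 0.00179), larger than that of any of the 33 genes. The transporter gene Slc2a6 was at least 2.78-fold higher (adjusted p = 0.0422), at 0.0623 and 0.227 in myofibroblasts, while both fibroblast arrays were not well above background. Pck2, the mitochondrial enzyme that makes phosphoenolpyruvate, was higher by 1.45 ± 0.27 (adjusted p = 0.0239). It is named after its value was seen, as are Sdhd, Myc and Car9 below. Adpgk (2.65 ± 0.87) and Pck1 (2.83 ± 1.17) were not called.

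Of 16 tested genes of lactate and pyruvate handling, 0 were higher and 1 lower, Pdp1, the phosphatase that switches pyruvate dehydrogenase back on. It was at 0.575 and 0.329 in myofibroblasts, against 2.41 and 1.29 in fibroblasts, with a log2 difference of -2.02 ± 0.46 (adjusted p = 0.0398). Pcx (-1.72 ± 1.06) and Ldhc (1.33 ± 0.73) were not called. Bsg, which encodes the partner protein of the lactate transporters, was at 14.6 and 19.7 in myofibroblasts, against 0.870 and 8.76 in fibroblasts, and was not called. Of 16 genes of the tricarboxylic acid cycle 2 were higher and 0 lower, Idh3a, a subunit of isocitrate dehydrogenase (1.13 ± 0.24, adjusted p = 0.0311), and Sdhd, a membrane anchor of succinate dehydrogenase (1.05 ± 0.23, adjusted p = 0.0358). Idh3b (2.05 ± 1.04), Sdhc (1.57 ± 0.51) and Sucla2 (-1.19 ± 0.49) were not called. Of 8 genes of the pentose phosphate pathway 0 were higher and 1 lower, H6pd, which makes NADPH in the endoplasmic reticulum (-1.35 ± 0.32, adjusted p = 0.0427), while Pgls (1.05 ± 0.44), Rpia (-0.88 ± 0.66) and G6pdx (0.64 ± 0.40) were not called.

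Of 14 regulators of the pathway 2 were higher and 2 lower, 28.6% called against 17.5% of all genes. Egln3, an oxygen-sensing prolyl hydroxylase that is itself a hypoxia target, was at 0.289 and 0.470 in myofibroblasts and not well above background in fibroblasts, at least 8.60-fold higher (adjusted p = 0.00746). Myc, a transcription factor that activates glycolytic genes, was at 10.7 and 10.8 in myofibroblasts, against 5.10 and 4.71 in fibroblasts (1.13 ± 0.25, adjusted p = 0.0376). Mlxip, a glucose-sensing factor, had a log2 difference of -2.32 ± 0.49 (adjusted p = 0.0318). Ppargc1a, a coactivator of mitochondrial genes, was not well above background in myofibroblasts and was at 0.344 and 0.176 in fibroblasts, at least 6.10-fold lower in myofibroblasts (adjusted p = 0.0224). Hif3a, a member of the hypoxia-inducible factor family, was at 0.0156 and 0.0200 in myofibroblasts, not well above background, against 0.186 and 0.0678 in fibroblasts, and was not called (adjusted p = 0.0556). Of 13 tested hypoxia targets outside glycolysis 1 was higher, again Egln3, and 2 were lower, the peptide hormone gene Adm (-1.84 ± 0.27, adjusted p = 0.0128) and the carbonic anhydrase gene Car9 (-1.19 ± 0.24, adjusted p = 0.0297). P4ha2, a collagen prolyl hydroxylase gene, was at 4.32 and 5.31 in myofibroblasts, against 2.42 and 1.30 in fibroblasts, and was not called (1.43 ± 0.38, adjusted p = 0.0568), nor was Kdm3a, a histone demethylase gene (-1.23 ± 0.43, adjusted p = 0.105). Adm was at 4.75 and 4.44 in myofibroblasts, 19.3 and 13.9 in fibroblasts, and 1.52 and 1.55 in homogenate.

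**Figure D4:**
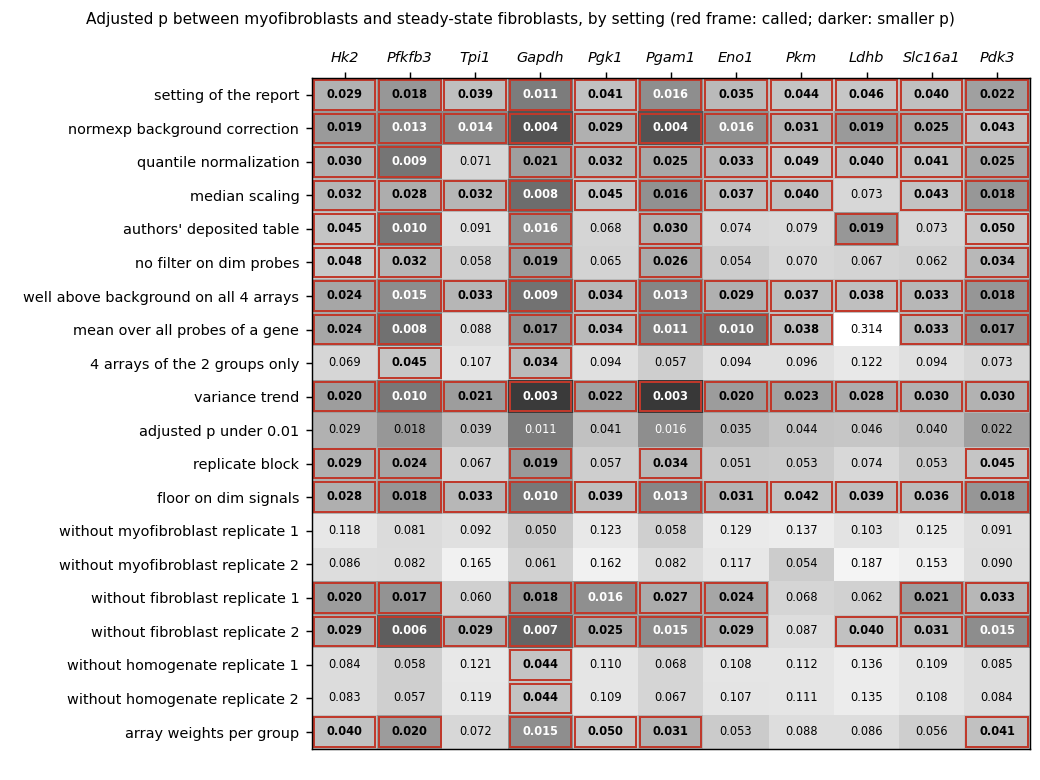
Adjusted p for the difference between myofibroblasts and fibroblasts of the 11 called genes (columns) under the setting of the report and each alternative (rows), with a red frame where the gene was called and darker cells for smaller p. No row without a myofibroblast array has a frame, and Gapdh has a frame in every row but those 2 and the stricter threshold.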

How the data were processed

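Per the file headers, the intensity values in the deposited scanner files come from Agilent Feature Extraction 12.0.3.1, whose processed signal is background-subtracted and not scaled between arrays. The authors' deposited table of intensity values, used as an alternative, equals that signal times 1 constant per array (5.17 to 6.93), and its method is not stated in those sources. Levels were computed as log2 of the ratio of the processed signal to the array's 75th percentile over 59305 non-control spots. Outlier spots were left out and spots of 1 of the 56605 probes averaged. Transcript accessions named 32994 probes through RefSeq, and 23611 had no name here. Group and replicate were taken from the labels.

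Genes entered a comparison if, in 1 or both groups compared, the 2 arrays of the group both had the brightest probe well above background. limma 3.58.1 (R 4.3.3) fitted all 6 arrays as 3 groups with 3 residual degrees of freedom, 5.55 with the prior, two-sided, with Benjamini-Hochberg adjustment over all genes tested, and a call was an adjusted p under 0.05. Where a group was not well above background, its level was set to at least the lowest signal that was, and the fold is given as "at least". The fit was tested on simulated data. The number of arrays, 2 per group, limits the precision.

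The 34 genes, the further lists and the markers were chosen with earlier results of these data known. All 34 genes are named, and of each further list the 4 tested genes with the largest log2 difference between the sorted groups, in either direction. Alternatives covered the background correction (normexp on the median signal, since the files hold no mean signal column), the scaling, the floor, the filter, the probe rule, the variance trend, the replicate block, array weights, the threshold and each array left out.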

Additional observations from a re-analysis of the deposited data

How the results depend on the processing

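Each alternative changed 1 choice, except normexp, which also replaced the processed signal by the median signal and added an offset of 50, and the authors' deposited table, which holds their own processing. No log2 difference called in the report changed sign in the 6 fits without 1 array or in the 13 other settings. However, 7 differences not called in the report were called in an alternative and had the opposite sign in another: Hk1, Ldha and Pfkfb2 between myofibroblasts and fibroblasts, and Slc2a1, Hk1, Eno3 and Ldha between fibroblasts and homogenate. For 6 of them the call came without 1 fibroblast array and the opposite sign without the other. Counts of calls moved more. Between myofibroblasts and fibroblasts, the 2793 genes called became 1290 with the 4 arrays of the 2 groups only, 718 at an adjusted p under 0.01, 1764 with array weights per group (chosen after seeing the data) and 1052 to 5796 without 1 array. The 11 of the 33 genes became 6 in the authors' deposited table, 5 with no filter on dim probes, 2 with the 4 arrays only, 0 at an adjusted p under 0.01, 6 with array weights and 0 to 14 without 1 array. Between myofibroblasts and homogenate, the 4644 genes became 7422 with the 4 arrays only, 2111 at the stricter threshold, 7566 with array weights and 1881 to 7240 without 1 array, and the 14 became 3 at the stricter threshold and 1 to 21 without 1 array. Between fibroblasts and homogenate, the 3409 genes became 2099 when all 4 arrays had to be above background, 1756 at the stricter threshold and 1572 to 6216 without 1 array, and the 6 became 2 at the stricter threshold and 1 to 16 without 1 array. Fits without 1 array leave a lone sample that is assumed to vary like the other groups.

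No shared effect of equal replicate numbers was visible: the deviations of same-numbered samples from their group means correlated at 0.07, -0.01 and 0.04 over 13938 genes. This cannot show whether same-numbered samples shared a mouse or a preparation, which the labels do not say. With the replicate block 5 of the 33 genes were called between myofibroblasts and fibroblasts, Hk2, Pfkfb3, Gapdh, Pgam1 and Pdk3.

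The scaling between arrays moved the split of calls. Of the genes called between myofibroblasts and fibroblasts 53.5% were higher, against 45.0% with quantile normalization. It was 64.4% when each array was scaled by its median, which shifted the all-gene median log2 difference by 0.14, and 25.6% in the authors' deposited table, which shifted it by -0.41. Against homogenate the share higher in myofibroblasts was 44.1%, against 64.5% by the array median (shift 0.40), 53.9% with normexp fitted on the median signal (shift 0.10) and 20.7% in the authors' deposited table (shift -0.50). For fibroblasts against homogenate it was 40.6%, and 50.3% by the array median (shift 0.27).

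Of 1881 alternative values for single genes, 172 lost a call, 68 gained one and 61 changed sign, all 61 called neither in the report nor in the alternative that turned them. With quantile normalization the log2 differences that turned were Aldoc -0.036 between myofibroblasts and fibroblasts, Hk1 -0.24, Gpi1 -0.42 and Aldoa -0.092 between myofibroblasts and homogenate, Slc2a4 0.037, Pfkp -0.070, Pgam1 -0.33, Pkm -0.14 and Ldha -0.077 between fibroblasts and homogenate. Averaged over all probes of a gene the log2 differences that turned were Hk1 0.26, Aldoc -0.041 and Pdk1 0.037 between myofibroblasts and fibroblasts, Pfkp -0.0039, Tpi1 -0.17 and Pkm -1.25 between fibroblasts and homogenate. With normexp the log2 differences that turned were Hk1 -0.025 between myofibroblasts and homogenate, Pgam1 -0.0039 between fibroblasts and homogenate. In the authors' deposited table the log2 differences that turned were Pfkfb4 -0.29, Aldoc -0.38, Eno2 -0.24 and Pdha1 -0.32 between myofibroblasts and fibroblasts, Hk1 -0.37, Gpi1 -0.48, Pfkl -0.21, Aldoa -0.061, Slc16a1 -0.071 and Pdhb -0.11 between myofibroblasts and homogenate, Pgam1 -0.057 and Pdk3 -0.038 between fibroblasts and homogenate. Scaled by the median the log2 differences that turned were Pdhb 0.088 between myofibroblasts and fibroblasts, Pfkp 0.049 and Pdk2 0.14 between myofibroblasts and homogenate, Hk2 0.21, Aldoa 0.26 and Pgk1 0.21 between fibroblasts and homogenate. The 26 in fits without 1 array belong to 21 log2 differences, whose ranges over those fits were Hk1 -1.03 to 0.61, Hk3 -0.72 to 0.028, Pfkfb2 -1.34 to 0.016, Pfkfb4 -0.30 to 0.53, Aldoc -0.058 to 0.11, Eno2 -0.21 to 0.55, Ldha -0.27 to 1.13, Pdha1 -0.21 to 0.40 and Pdhb -0.48 to 0.38 between myofibroblasts and fibroblasts, Gpi1 -0.17 to 0.20 and Pdk2 -0.74 to 0.21 between myofibroblasts and homogenate, Slc2a1 -0.11 to 1.39, Hk1 -0.48 to 1.15, Hk2 -0.54 to 0.43, Pfkp -0.23 to 0.48, Aldoa -0.29 to 0.27, Pgk1 -0.51 to 0.40, Eno3 -0.27 to 1.26, Pkm -0.014 to 0.44, Ldha -0.41 to 0.98 and Pdk3 -0.028 to 0.13 between fibroblasts and homogenate.

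In simulated data the comparison of the sorted groups called 2% of genes changed 2-fold, 42% at 4-fold and 88% at 8-fold. There 50 of 15971 genes were changed at each of 2-, 4-, 8- and 16-fold, a smaller share than the 17.5% called in the data. The adjustment of p was therefore stricter in the simulation. Its percentages are not detection rates for the data, where Ldhb was called at 2.03-fold.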
